A study of Mus musculus with 12 samples.

Results

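The genes described here are the 33 that take fatty acids into heart cells and oxidise them, chosen by name and followed from the cell surface to the electron carriers of the inner mitochondrial membrane. All 33 were found by their symbol among the 16514 genes of the deposited tables, and all 33 passed the filter on low values in every comparison. RNA came from whole hearts of male C57Bl/6J mice aged 12 weeks, in 4 groups of 3 libraries. BCAA-free TAC mice ate a diet with no branched-chain amino acids (BCAA: leucine, isoleucine and valine) and underwent TAC, transverse aortic constriction, which narrows the aorta so that the left ventricle works against high pressure. BCAA-free sham mice ate the same diet and had a sham operation. Control TAC mice and control sham mice ate a diet that contained all essential amino acids, with BCAA at the level of standard chow. Both diets held 1% propionate, so no group was free of added propionate. The diets began 4 days before surgery and went on until the hearts were taken 1 week after it.

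Fatty acids are the main fuel of the adult heart. They cross the plasma membrane, are bound by a carrier protein, are joined to coenzyme A, and are moved into the mitochondrial matrix as esters of carnitine. Each turn of β-oxidation then shortens the chain through dehydrogenation, hydration, a further dehydrogenation and thiolysis, and passes electrons to the respiratory chain; in hearts under pressure overload, lower expression of this pathway is a known feature.

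The libraries held 29929161 to 46101244 reads assigned to the listed genes, and 15665 genes had reads in all 12. Levels are given as CPM, the recovered reads of a gene scaled to a common total over all 12 libraries. Differences are log2 differences ± SE between groups of n = 3 libraries, taken within the authors' table of each comparison, with p-values adjusted over all genes tested by limma unless another tool is named. Whether each library stands for its own mouse is not stated, so the p-values rest on variation among libraries that could be technical. The label heart was borne out by the cardiomyocyte markers, whose 12 genes summed to 88567 to 110933 CPM in the 12 libraries. Liver transcripts set control TAC replicate 3 apart: its 15 liver markers summed to 367 CPM, against 21.6 CPM in replicate 1 and 15.6 CPM in replicate 2. Counts that rest on control TAC hearts were also taken without replicates 2 and 3 of that group, a choice made from earlier work on these data. The liver markers did not set replicate 2 apart. For the genes described here, replicate 1 was the lowest library of that group for 28 members.

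Promoters are shown for 4 members that are described further on, as an illustration of the sequence before their starts. Cd36 is shown because its promoter window was among those that hold the hexamer AGGTCA, bound by nuclear receptors of the kind that control fatty acid genes. Hadha and Hadhb are shown because they encode the 2 subunits of the same enzyme and lie head to head, with a gap of 85 bases between them. Acads is shown as the acyl-CoA dehydrogenase gene with the lowest p. Sequences are from RefSeq on the build GRCm38.p6, written 5′ to 3′, and capitals mark AGGTCA and the GC box GGGCGG on either strand, so that TGACCT and CCGCCC also stand in capitals. The Cd36 stretch is chr5:17835897-17836146 on the minus strand, inside the annotated span of the gene but outside its exons. The Hadha-Hadhb stretch is the whole gap, chr5:30155163-30155247, written on the plus strand with Hadha to its left and Hadhb to its right. The Acads stretch is chr5:115119347-115119596 on the minus strand, directly before the gene.
Cd36: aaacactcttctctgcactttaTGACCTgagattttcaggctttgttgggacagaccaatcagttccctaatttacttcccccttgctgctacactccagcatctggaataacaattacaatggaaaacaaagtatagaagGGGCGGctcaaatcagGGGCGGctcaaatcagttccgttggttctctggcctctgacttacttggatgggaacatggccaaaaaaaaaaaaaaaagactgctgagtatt
Hadha-Hadhb: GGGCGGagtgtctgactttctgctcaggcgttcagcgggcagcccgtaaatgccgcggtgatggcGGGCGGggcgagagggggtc
Acads: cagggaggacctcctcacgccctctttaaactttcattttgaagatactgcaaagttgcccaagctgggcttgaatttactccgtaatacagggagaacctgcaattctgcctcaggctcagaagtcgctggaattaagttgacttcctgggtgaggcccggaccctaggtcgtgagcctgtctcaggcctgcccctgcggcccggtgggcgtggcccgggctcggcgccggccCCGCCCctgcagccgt

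RefSeq promoter windows, from 250 bases before to 50 bases after the start, were matched for 27 of the 33 members. On either strand, GGGCGG was present for 20 of the 27 (74.1%), against 38.2% of 27025 genes with a window. AGGTCA was present for 5 members (18.5%), Acacb, Acadm, Acadvl, Cd36 and Echs1, against 18.1% of all genes. Longer motifs that contain AGGTCA, the direct repeat of AGGTCA spaced by a single base and the estrogen-related receptor motif TCAAGGTCA, were present for 0 of the 27, against 0.0481% and 0.466% of all genes. These matches describe letters in the windows and are not evidence of binding. The members lay on 15 chromosomes. The exons of 13 members share bases with another annotated gene, and whether reads were counted by strand is not given in the sources used here, so the values of those members are uncertain. Among them are Cpt1b, which shares exon bases with Gm44502 on the same strand, and Acadvl, which shares them with Dvl2. Reads of Acaa1a may also be split with its close copy Acaa1b.

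Levels per length spanned from the most abundant transcripts of the heart to scarce ones. Fabp3, which encodes the fatty acid binding protein of heart muscle, averaged 3462 CPM per kb of exon (12 libraries, lowest 3130, highest 3920), the 16th highest of 15634 genes. Below it stood Acaa2, the mitochondrial 3-ketoacyl-CoA thiolase (518), Ech1, a dienoyl-CoA isomerase (498), Acadl, the long-chain acyl-CoA dehydrogenase (480), and Etfa, a subunit of the electron transfer flavoprotein (370), all in CPM per kb. Acaa2 and Ech1, and Ech1 and Acadl, differed by less than their spread over the libraries; in all, 19 of the 32 neighbouring pairs in this order did. The carnitine and malonyl-CoA genes lay lower than these. Crat, carnitine acetyltransferase, had 84.4, Cpt1b, the muscle enzyme that commits fatty acids to the mitochondrion, 42.5 and Mlycd, malonyl-CoA decarboxylase, 38.7 CPM per kb. Genes of other steps lay as low, such as Etfdh (66.5) and Echs1 (33.4 CPM per kb). Length is that of all annotated exons of a gene together, so the order also depends on the annotation. At the bottom were the acyl-CoA synthetases Acsl5 (3.70), Acsl4 (2.19) and Acsl3 (1.35 CPM per kb), while Acsl1, the main cardiac member of that family, had 73.8 CPM per kb.

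**Figure D1:**
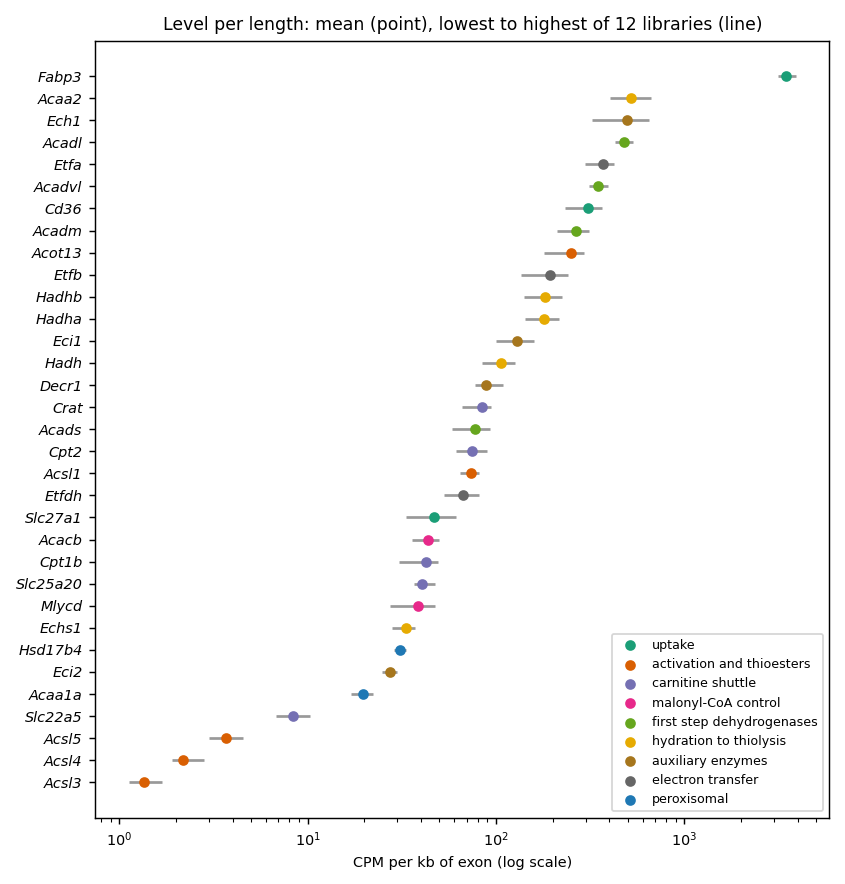
Mean level per length of the 33 genes in CPM per kb of exon on a log axis, ordered by level; points are means of 12 libraries, lines run from the lowest to the highest library, and colours give the step. Fabp3, at 3462 CPM per kb, stands apart at the top, and Acsl3, at 1.35 CPM per kb, is at the bottom.

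Together the 33 genes took 15939, 17439 and 18371 CPM in BCAA-free TAC libraries, 19592, 18361 and 19398 CPM in BCAA-free sham libraries, 14571, 16136 and 16243 CPM in control TAC libraries, and 18694, 17443 and 20628 CPM in control sham libraries. As a share of reads, this was a mean of 1.72% in BCAA-free TAC, 1.91% in BCAA-free sham, 1.57% in control TAC and 1.89% in control sham hearts. All control TAC sums lay below all control sham sums, whereas on the BCAA-free diet the highest TAC sum was just above the lowest sham sum. Control TAC hearts had the lowest group mean of the 4 groups for 27 of the 33 members. Within the groups, replicate 1 was the lowest library for 26 members in BCAA-free TAC and for 28 in control TAC, and replicate 2 was the lowest for 26 in control sham.

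The same TAC libraries differed in markers of other cells. Fibroblast markers summed to 2618, 1610 and 1320 CPM in BCAA-free TAC replicates 1, 2 and 3, against 761 to 843 CPM in BCAA-free sham. They summed to 2761, 1479 and 1542 CPM in control TAC replicates 1, 2 and 3, against 1031 to 1128 CPM in control sham. Macrophage markers summed to 484, 392 and 390 CPM in BCAA-free TAC, against 214 to 233 CPM in BCAA-free sham, and to 473, 303 and 360 CPM in control TAC, against 294 to 303 CPM in control sham. With TAC, 7 of 10 fibroblast markers and 10 of 10 macrophage markers rose on the BCAA-free diet. Of all genes 4.32% passed there in either direction. On the control diet 4 fibroblast markers rose and 1 fell, and 1 of 10 macrophage markers rose. Of all genes on that diet, 3.4% rose and 1.94% fell. Endothelial markers summed to 992 to 1031 CPM in BCAA-free TAC, against 1087 to 1183 CPM in BCAA-free sham, and to 1045 to 1217 CPM in control TAC, against 1152 to 1445 CPM in control sham. With TAC, 2 of 10 endothelial markers fell on the BCAA-free diet (median -0.18), and 1 fell on the control diet (median -0.15). Averaged over the diets 4 fell and 0 rose, led by Kdr (-0.42 ± 0.07) and Tek (-0.31 ± 0.07), where 7.29% of all genes fell. Replicate 1 of both TAC groups had the highest fibroblast and macrophage sums of its group and the lowest sum of the 33 genes. Cardiomyocyte marker sums overlapped between control TAC (88567 to 97258 CPM) and control sham hearts (92394 to 97788 CPM). They were higher in BCAA-free TAC (100058 to 110933 CPM) than in BCAA-free sham hearts (94069 to 99296 CPM). Of the 12 cardiomyocyte markers, 2 rose and 0 fell with TAC on each diet. Averaged over the diets 4 rose and 1 fell, where 9.67% of all genes rose and 7.29% fell. The part of other cell types in the TAC results below was not tested, and in whole hearts fewer cells of a type and less RNA per cell cannot be told apart.

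**Figure D2:**
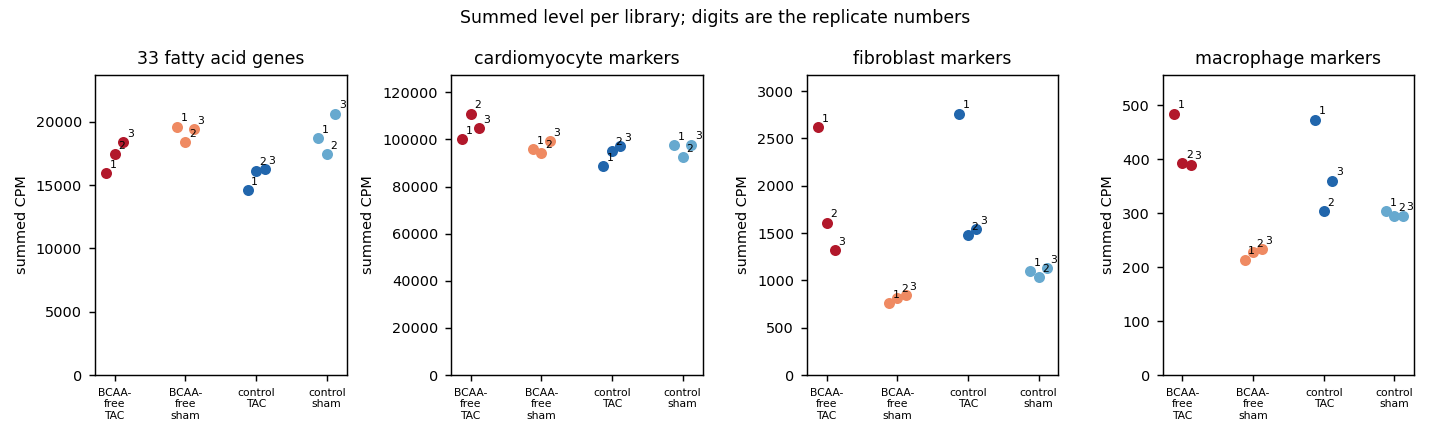
Summed CPM per library of the 33 genes and of the cardiomyocyte, fibroblast and macrophage markers, with 3 points per group and digits for the replicate number. Replicate 1 of both TAC groups is the lowest point of its group for the 33 genes and the highest for the fibroblast and macrophage markers.

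The first question was what TAC changed on the BCAA-free diet. Although 29 of the 33 genes had lower means in BCAA-free TAC than in BCAA-free sham hearts, where 50.6% of all genes did, 0 passed the limma threshold in either direction, where 4.32% of all genes did. At an unadjusted p under 0.05 stood 9 members, where 21.4% of all genes did. With edgeR 0 members were called, where 4.19% of all genes were, and with DESeq2 5 were called, all lower (Mlycd, Ech1, Hadha, Hadhb and Etfdh), where 7.18% of all genes were. The median difference was -0.12, against 0.00 over all genes. For 11 members every BCAA-free TAC library lay below every BCAA-free sham library, where 12.7% of all genes did so.

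Mlycd, which removes the malonyl-CoA that blocks entry of fatty acids into mitochondria, had the lowest p on this diet, and Ech1 the largest difference. Mlycd had 91.7, 112 and 119 CPM in BCAA-free TAC libraries and 140, 140 and 128 CPM in BCAA-free sham libraries, a difference of -0.36 ± 0.09 (adjusted p = 0.0517). Ech1, which shifts double bonds of unsaturated fatty acids, had 824, 1161 and 1135 CPM in BCAA-free TAC and 1479, 1301 and 1414 CPM in BCAA-free sham libraries (-0.45 ± 0.12, adjusted p = 0.0644). In neither gene did the groups overlap. The next lowest p-values belonged to Decr1, the 2,4-dienoyl-CoA reductase (-0.23 ± 0.07, adjusted p = 0.0868), Etfdh, which hands the electrons to ubiquinone (-0.22 ± 0.07, adjusted p = 0.0923), Cpt1b (-0.22 ± 0.07, adjusted p = 0.0958) and Hadhb (-0.24 ± 0.08, adjusted p = 0.115). Acot13, a thioesterase that releases fatty acids from coenzyme A, had the highest positive difference of the 33 (0.12 ± 0.08, adjusted p = 0.445). Without BCAA-free TAC replicate 3, 4 members passed, all lower, while 1199 of all genes passed, against 688 with all libraries. Without any other single library, 0 members passed. All genes passing then numbered 106 to 118 without a BCAA-free sham library, 385 without BCAA-free TAC replicate 2 and 796 without replicate 1.

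On the control diet, 10 of the 33 genes fell with TAC and 0 rose, where 1.94% of all genes fell and 3.4% rose. All steps from uptake to electron transfer except activation held members that fell. The median difference of the 33 was -0.28, against 0.00 over all genes, and 32 had lower means in control TAC hearts, where 49.8% of all genes did. For 23 members every control TAC library lay below every control sham library, where 13.6% of all genes did so. At an unadjusted p under 0.05 stood 23 members, where 22.7% of all genes did. The falls were moderate: the largest, of Ech1, was by 34.8%.

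**Figure D3:**
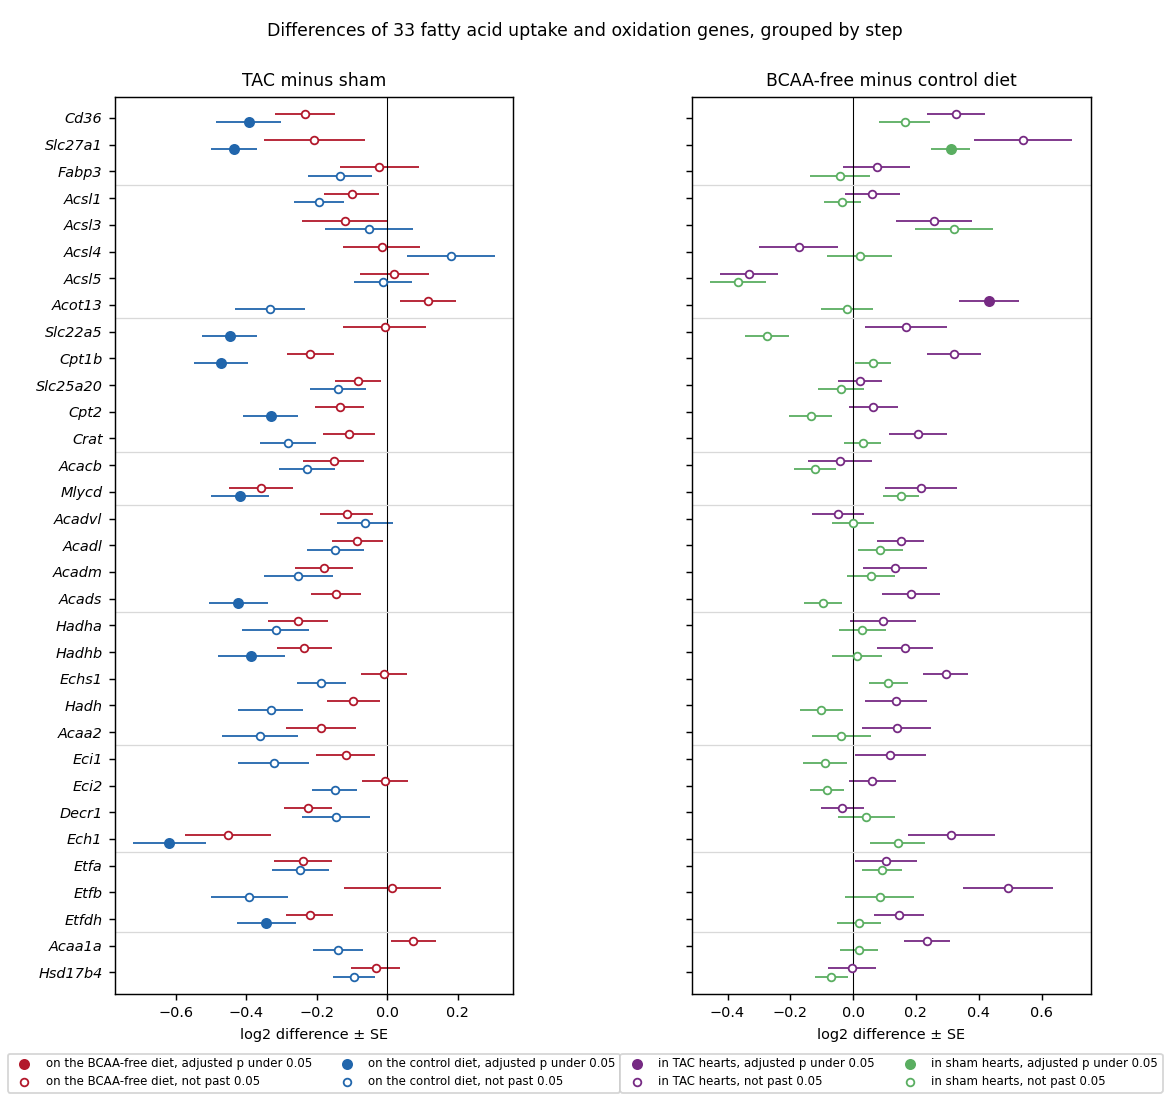
Log2 differences ± SE of the 33 genes, with TAC minus sham at the left (red on the BCAA-free diet, blue on the control diet) and BCAA-free minus control diet at the right (purple in TAC hearts, green in sham hearts); filled points passed an adjusted p of 0.05 by limma, and grey lines part the steps. On the left 10 blue points and 0 red points are filled, and on the right 1 purple and 1 green point are filled.

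Both membrane proteins of uptake fell, and the cytosolic carrier did not pass. Cd36 (ENSMUSG00000002944, chr5:17781690-17888801), the fatty acid translocase, had 833, 889 and 910 CPM in control TAC and 1084, 1067 and 1317 CPM in control sham libraries. All TAC libraries were below all sham libraries, a fall of -0.39 ± 0.09 on the log2 scale (adjusted p = 0.0423). Slc27a1 (ENSMUSG00000031808, chr8:71568882-71587302), a fatty acid transport protein that also links its cargo to coenzyme A, had 201, 201 and 194 CPM in control TAC and 271, 251 and 285 CPM in control sham libraries. Its TAC libraries lay close together, well below the sham libraries (-0.43 ± 0.07, adjusted p = 0.00968), and it was the only member of the 33 that passed with each single library left out. Its call was lost by limma in 1 fit of all 12 libraries (adjusted p = 0.0566). Fabp3 had 2634 to 2773 CPM in control TAC and 2725 to 3226 CPM in control sham libraries, which overlapped (-0.13 ± 0.09, adjusted p = 0.43, 95% interval -0.34 to 0.07).

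No gene of activation passed. Acsl1 differed by -0.19 ± 0.07 (adjusted p = 0.14), Acot13 by -0.33 ± 0.10 (adjusted p = 0.0854), and the groups of both did not overlap. Acsl3 (-0.05 ± 0.12), Acsl4 (0.18 ± 0.12, the only positive difference among the 33) and Acsl5 (-0.01 ± 0.08) had groups that overlapped.

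In the carnitine shuttle 3 of 5 genes fell. Slc22a5 (ENSMUSG00000018900, chr11:53864542-53891660), which brings carnitine into the cell, had 21.9, 24.1 and 21.2 CPM in control TAC and 30.4, 29.6 and 31.5 CPM in control sham libraries (-0.45 ± 0.08, adjusted p = 0.0158). Cpt1b (ENSMUSG00000078937, chr15:89416405-89425863) had 103, 116 and 121 CPM in control TAC and 162, 147 and 162 CPM in control sham libraries (-0.47 ± 0.08, adjusted p = 0.0132). Cpt2 (ENSMUSG00000028607, chr4:107903981-107923610), which turns acylcarnitine back into acyl-CoA in the matrix, had 147, 161 and 172 CPM in control TAC and 203, 186 and 214 CPM in control sham libraries (-0.33 ± 0.08, adjusted p = 0.042). In all of these genes the TAC libraries lay below the sham libraries without overlap. Crat differed by -0.28 ± 0.08 (adjusted p = 0.073) and Slc25a20, the carrier that exchanges acylcarnitine for carnitine, by -0.14 ± 0.08 (adjusted p = 0.343).

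Malonyl-CoA is made by Acacb and removed by Mlycd, and both genes had lower means with TAC. Mlycd (ENSMUSG00000074064, chr8:119394878-119411102) had 81.5, 95.2 and 101 CPM in control TAC and 127, 122 and 120 CPM in control sham libraries, and fell (-0.42 ± 0.08, adjusted p = 0.0227). Acacb did not pass (-0.23 ± 0.08, adjusted p = 0.124).

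Of the acyl-CoA dehydrogenases, which act on chains of decreasing length, the short-chain enzyme fell. Acads (ENSMUSG00000029545, chr5:115110299-115119346) had 133, 152 and 165 CPM in control TAC and 197, 192 and 211 CPM in control sham libraries (-0.42 ± 0.08, adjusted p = 0.023). Every TAC library was below every sham library. The differences of the others were -0.06 ± 0.08 for Acadvl (very long chains), -0.15 ± 0.08 for Acadl (long chains) and -0.25 ± 0.10 for Acadm (medium chains), with adjusted p from 0.164 to 0.686; whether these differ from that of Acads was not tested.

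The 5 genes from hydration to thiolysis all had lower means without overlap, and 1 passed. Hadhb (ENSMUSG00000059447, chr5:30155248-30184593), which encodes the thiolase subunit of the mitochondrial trifunctional protein, had 929, 1069 and 1044 CPM in control TAC and 1306, 1200 and 1474 CPM in control sham libraries (-0.39 ± 0.09, adjusted p = 0.0482). Hadha, its partner gene across the 85 bases shown above, differed by -0.32 ± 0.10 (adjusted p = 0.0885). Hadh, the 3-hydroxyacyl-CoA dehydrogenase for shorter chains (-0.33 ± 0.09, adjusted p = 0.0713), Acaa2 (-0.36 ± 0.11, adjusted p = 0.0857) and Echs1, the short-chain enoyl-CoA hydratase (-0.19 ± 0.07, adjusted p = 0.151), did not pass.

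Among the auxiliary enzymes, which handle double bonds of unsaturated fatty acids, Ech1 fell. Ech1 (ENSMUSG00000053898, chr7:28825217-28832247) had 742, 877 and 876 CPM in control TAC and 1288, 1127 and 1417 CPM in control sham libraries (-0.62 ± 0.10, adjusted p = 0.0137). This was the largest difference of the 33, and the groups did not overlap. Eci1 (-0.32 ± 0.10, adjusted p = 0.0974) and Eci2 (-0.15 ± 0.06, adjusted p = 0.203), both enoyl-CoA isomerases, and Decr1 (-0.15 ± 0.10, adjusted p = 0.422) did not pass.

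In electron transfer, Etfdh (ENSMUSG00000027809, chr3:79603788-79629500) fell, with 398, 444 and 448 CPM in control TAC and 521, 510 and 607 CPM in control sham libraries (-0.34 ± 0.08, adjusted p = 0.0493). Its groups did not overlap, nor did those of the flavoprotein subunits Etfa (-0.25 ± 0.08, adjusted p = 0.106) and Etfb (-0.39 ± 0.11, adjusted p = 0.0716). The members that act in peroxisomes, Acaa1a, a thiolase (-0.14 ± 0.07, adjusted p = 0.289), and Hsd17b4, the bifunctional enzyme (-0.10 ± 0.06, adjusted p = 0.386), did not pass.

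None of the 10 changed sign under any setting tried. With a control sham library left out, 1 member passed without replicate 1, 10 without replicate 2 and 3 without replicate 3, while 300, 659 and 331 of all genes passed, against 848 with all libraries. With a control TAC library left out, 6 passed without replicate 1, 4 without replicate 2 and 7 without replicate 3, while 400, 399 and 634 of all genes passed. Without both control TAC replicates 2 and 3, 11 members passed and Slc27a1 did not (adjusted p = 0.0507), but this leaves replicate 1 alone in its group, with the spread taken from the control sham libraries, so it gives no support. The call of Etfdh was lost with each single library left out, those of Cd36 and Hadhb with 5 of the 6, and edgeR called 6 of the 33, where it called 4.61% of all genes, and DESeq2 18, where it called 9.7%.

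**Figure D4:**
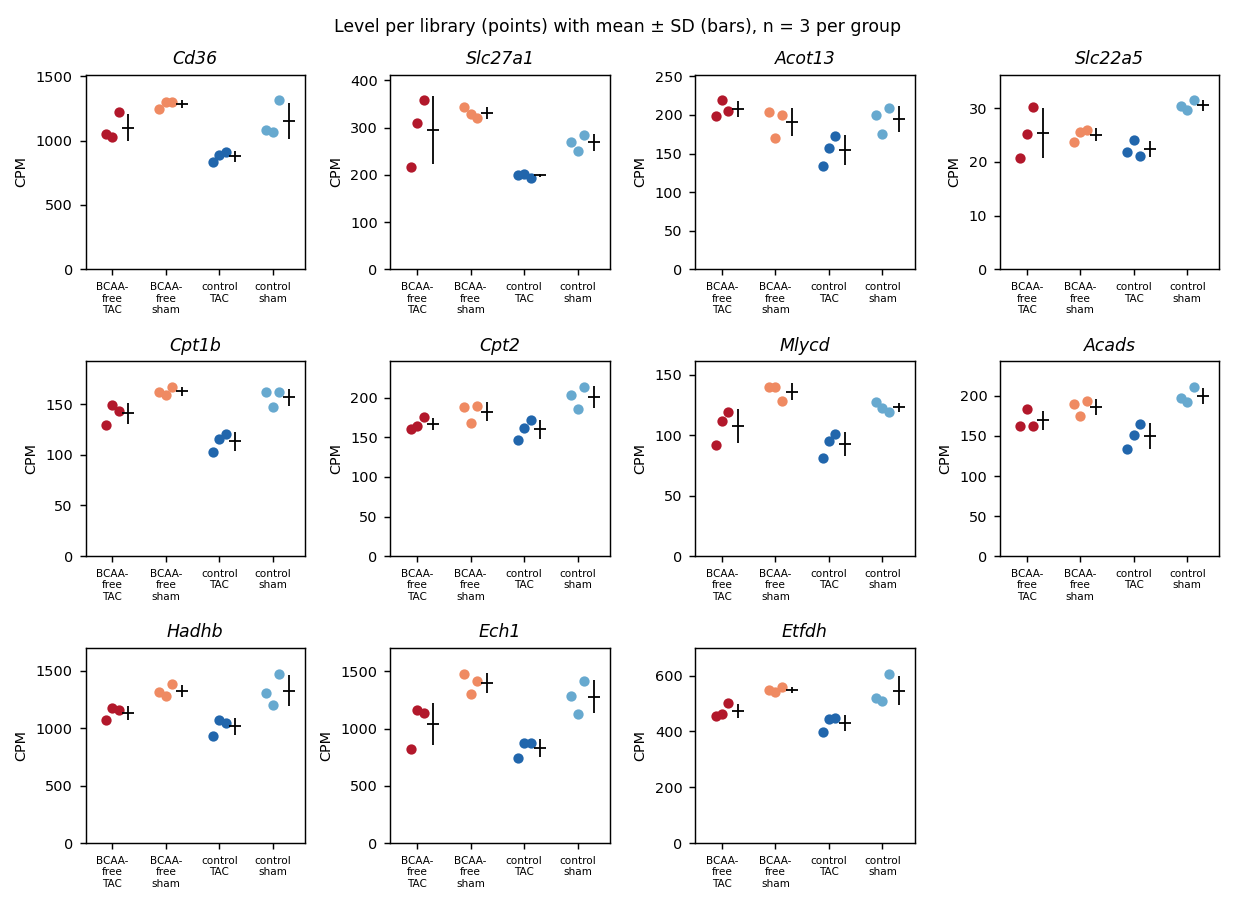
CPM per library of the 11 genes that passed in at least 1 of the 4 pairwise comparisons, with 3 points per group and the mean ± SD as a bar beside them. In all 11 panels the 3 control TAC points lie below the 3 control sham points.

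Since the TAC responses on both diets share no library, they can be set side by side. For 29 of the 33 genes the difference was less negative, or more positive, on the BCAA-free diet, where 49.8% of all genes had a positive difference of the responses. The test of that difference itself, in 1 model over both TAC tables, called 0 of the 33, where 0.0451% of all genes were called. At an unadjusted p under 0.05 stood 5 members, where 10.1% of all genes did, and edgeR and DESeq2 also called 0 of the 33, where they called 0.0322% and 0.696% of all genes. The median difference of responses was 0.14, against 0.00 over all genes, and after quantile normalisation it was 0.05, with 21 of 33 positive. Marker medians of this difference were 0.20 for cardiomyocytes, 0.45 for fibroblasts, 0.54 for macrophages and 0.02 for endothelial cells. For white adipocytes the median was 0.32, for skeletal muscle 0.50, for red blood cells 0.17, for brown adipocytes -0.09 and for liver -0.13. Of these markers 0 were called. Their part in the result was not tested.

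Acot13 had the lowest p, with a TAC difference of 0.12 on the BCAA-free diet and -0.33 on the control diet (difference of responses 0.45 ± 0.14, adjusted p = 0.278, 95% interval 0.16 to 0.74). Slc22a5 had -0.01 on the BCAA-free diet and -0.45 on the control diet (0.44 ± 0.15, adjusted p = 0.322, 95% interval 0.12 to 0.77). Next came Cpt1b (0.25 ± 0.10, adjusted p = 0.392), Acads (0.28 ± 0.11, adjusted p = 0.394), Acaa1a (0.21 ± 0.09, adjusted p = 0.436) and Etfb (0.41 ± 0.20, adjusted p = 0.531). For the genes with the largest differences on the BCAA-free diet, Ech1 had -0.45 and -0.62, and Mlycd -0.36 and -0.42, on the BCAA-free and the control diet. The intervals of their differences of responses ran from -0.21 to 0.54 for Ech1 and from -0.22 to 0.34 for Mlycd, which include 0 and leave room for a smaller response on either diet. Across the 33 genes the 2 responses had a Pearson r of 0.54, much like the 0.53 over 15498 genes, given as a description across genes.

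**Figure D5:**
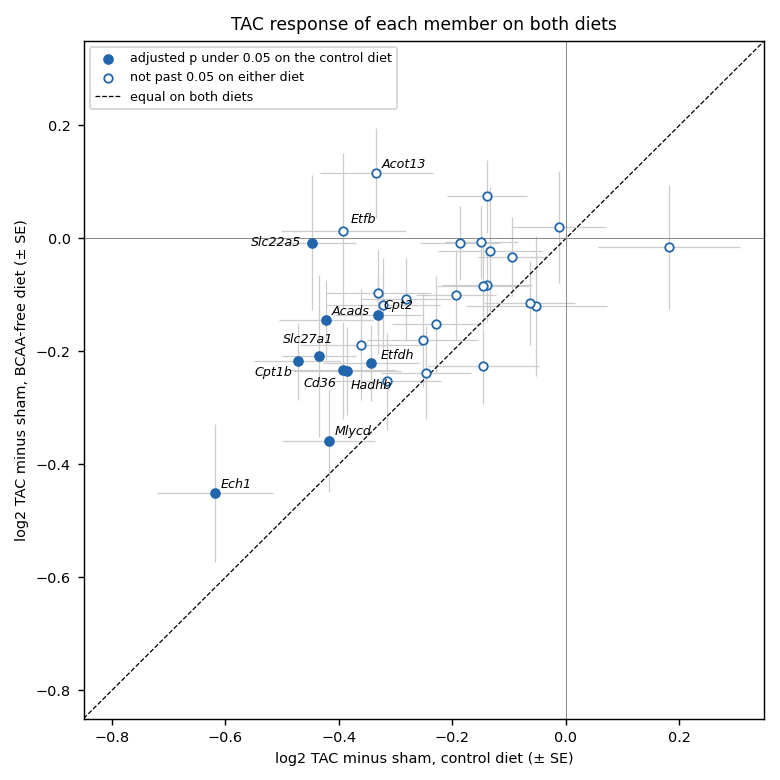
Log2 TAC minus sham difference of each of the 33 genes on the BCAA-free diet (vertical axis) and on the control diet (horizontal axis), with SE as grey lines and a dashed line where both are equal; filled points passed by limma on the control diet. All but 4 points lie above the dashed line, and Ech1 lies lowest on both axes.

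Averaged over the diets, 17 of the 33 genes fell with TAC and 0 rose, where 7.29% of all genes fell and 9.67% rose. This model shares its libraries with the 2 TAC comparisons above and adds precision rather than independent samples. The 10 that passed with each single library left out were Cd36, Cpt1b, Cpt2, Mlycd, Acads, Hadha, Hadhb, Ech1, Etfa and Etfdh. Ech1 fell by 0.53 ± 0.09 (adjusted p = 0.00174), Mlycd by 0.39 ± 0.07 (adjusted p = 0.00204), Cpt1b by 0.34 ± 0.05 (adjusted p = 0.000972), Etfdh by 0.28 ± 0.05 (adjusted p = 0.00361) and Hadha by 0.28 ± 0.06 (adjusted p = 0.0084) on the log2 scale. The other 7 that fell were Slc27a1, Crat, Acacb, Acadm, Hadh, Acaa2 and Eci1. By step, 4 of the 5 genes from hydration to thiolysis, 3 of 5 of the carnitine shuttle and both of malonyl-CoA control fell. Of activation 0 of 5 fell, and of the peroxisomal members 0 of 2. These 2 do not stand for peroxisomal genes as a whole. In the list of other peroxisomal genes described below, 8 of 23 fell and 0 rose in the same model. The count ran from 10 to 19 with single libraries left out, with 10 without BCAA-free sham replicate 1 or control sham replicate 3, and 11 without BCAA-free TAC replicate 1, control sham replicate 1 or control TAC replicate 1. In the same settings 1732 to 2889 of all genes passed, against 2633 with all libraries.

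The diet comparison in sham hearts asked what removal of BCAA changed without pressure overload. It and the diet comparison in TAC hearts use the same libraries as the TAC comparisons above, so the results are not independent of them. Slc27a1 alone rose and 0 fell, where 1.05% of all genes rose and 1.76% fell, and the median of the 33 was 0.02, against 0.00 over all genes. Slc27a1 had 344, 328 and 321 CPM in BCAA-free sham and 271, 251 and 285 CPM in control sham libraries. The BCAA-free libraries were all higher (0.31 ± 0.06, adjusted p = 0.0258). Acsl5, an acyl-CoA synthetase, had 15.1, 16.6 and 15.1 CPM in BCAA-free sham and 18.9, 22.01 and 19.9 CPM in control sham libraries, without overlap (-0.37 ± 0.09, adjusted p = 0.0514). Slc22a5 had 23.7, 25.5 and 25.9 CPM in BCAA-free sham and 30.4, 29.6 and 31.5 CPM in control sham libraries, without overlap (-0.28 ± 0.07, adjusted p = 0.0627). Mlycd (0.15 ± 0.06, adjusted p = 0.19), Acsl3 (0.32 ± 0.12, adjusted p = 0.197) and Cd36 (0.16 ± 0.08, adjusted p = 0.319) followed by p. The groups did not overlap for 3 members higher and 4 lower on the BCAA-free diet, where 11.5% and 11.8% of all genes were so, and 5 members had an unadjusted p under 0.05, where 18.3% of all genes did. The genes from hydration to thiolysis differed by -0.10 to 0.11, all with groups that overlapped. The call of Slc27a1 was lost without any 1 BCAA-free sham library and without control sham replicate 1 or 2 (adjusted p by limma up to 0.13). In those settings 68 to 364 of all genes passed. Without control sham replicate 3, 2 rose and 1 fell, while 1020 of all genes passed, against 438 with all libraries. Beside these results, 7 of 10 fibroblast markers (median -0.58) and 4 of 10 macrophage markers (median -0.41) fell on the BCAA-free diet in sham hearts, and 3 of 6 white adipocyte markers rose; their part in the results was not tested. With edgeR 2 members were called, where 2.98% of all genes were, and with DESeq2 3, where 5.21% were.

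In TAC hearts 1 gene, Acot13, rose on the BCAA-free diet and 0 fell, where 1.27% of all genes rose and 2.11% fell. Acot13 (ENSMUSG00000006717, chr13:24817948-24831540) had 198, 219 and 205 CPM in BCAA-free TAC and 134, 158 and 172 CPM in control TAC libraries. The BCAA-free libraries were all higher (0.43 ± 0.10, adjusted p = 0.0478), and edgeR gave an adjusted p of 0.061. The median of the 33 was 0.14, against 0.00 over all genes, and 27 had higher means on the BCAA-free diet, where 50.7% of all genes did; after quantile normalisation the median was 0.01, with 19 higher and 14 lower. The groups did not overlap for 10 members higher on the BCAA-free diet, where 12.6% of all genes were so, and for 1 member lower, where 13% were. At an unadjusted p under 0.05 stood 8 members, where 19.9% of all genes did. Marker medians in this comparison were 0.16 for cardiomyocytes, 0.04 for fibroblasts, 0.05 for macrophages and -0.12 for endothelial cells. For white adipocytes the median was 1.14, for brown adipocytes 0.30, for skeletal muscle 0.85, for red blood cells 0.09 and for liver -2.06. By limma 1 of 5 skeletal muscle and 1 of 10 fibroblast markers rose, and 1 of 10 endothelial markers fell. Their part in the result was not tested.

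The members with the next lowest p-values came from several steps. Echs1 had 276, 308 and 302 CPM in BCAA-free TAC and 231, 241 and 252 CPM in control TAC libraries (0.29 ± 0.07, adjusted p = 0.0636). Cpt1b had 130, 149 and 143 CPM in BCAA-free TAC and 103, 116 and 121 CPM in control TAC libraries (0.32 ± 0.09, adjusted p = 0.0822). Cd36 had 1055, 1026 and 1221 CPM in BCAA-free TAC and 833, 889 and 910 CPM in control TAC libraries (0.33 ± 0.09, adjusted p = 0.0951). In each of them all BCAA-free libraries were higher. Acsl5 was lower, with 17.6, 15.6 and 14.7 CPM in BCAA-free TAC and 19.8, 20.4 and 20.0 CPM in control TAC libraries (-0.33 ± 0.09, adjusted p = 0.0882). Etfb differed by 0.49 ± 0.14 (adjusted p = 0.0988) and Acaa1a, with 87.8, 97.8 and 94.5 CPM in BCAA-free TAC and 75.2, 79.6 and 83.65 CPM in control TAC libraries, by 0.24 ± 0.07 (adjusted p = 0.118). Slc27a1 had the largest difference (0.54 ± 0.16, adjusted p = 0.1) and an uneven spread, with 216 CPM in BCAA-free TAC replicate 1 and 310 and 359 CPM in replicates 2 and 3, against 194 to 201 CPM in control TAC. Without BCAA-free TAC replicate 1, the library with the highest fibroblast sum of its group, 6 members rose and 1 fell, while 1044 of all genes passed, against 548 with all libraries. Without BCAA-free TAC replicate 2 or 3, or control TAC replicate 1 or 2, 0 members passed, while 138 to 333 of all genes passed. With DESeq2 6 rose (Cd36, Slc27a1, Acot13, Cpt1b, Echs1 and Etfb), where it called 7.32% of all genes, and with edgeR 0, where it called 3.03%.

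Averaged over surgery, 5 of the 33 rose on the BCAA-free diet and 1 fell, where 5.19% of all genes rose and 6.57% fell. Both membrane proteins of uptake rose, Slc27a1 by 0.43 ± 0.09 (adjusted p = 0.00978) and Cd36 by 0.25 ± 0.06 (adjusted p = 0.0255). The call of Cd36 was kept in 6 of the 12 fits with a single library left out. After quantile normalisation it was lost (adjusted p by limma 0.143). The others that rose were Echs1 (0.20 ± 0.05, adjusted p = 0.0137), Cpt1b (0.19 ± 0.05, adjusted p = 0.0303) and Acsl3 (0.29 ± 0.08, adjusted p = 0.0346). Acsl5 fell by 0.35 ± 0.06 on the log2 scale (adjusted p = 0.00363). These synthetases thus moved in opposite directions, Acsl3 at 4.88 to 7.38 CPM and Acsl5 at 14.7 to 22.01 CPM over the 12 libraries. Slc27a1, Acsl5 and Echs1 passed with each single library left out, and the count ran from 3 to 10 over those settings, with 10 without BCAA-free TAC replicate 1 and 3 without BCAA-free sham replicate 1 or 3 or control sham replicate 2. In the same settings 1062 to 2484 of all genes passed, against 1819 with all libraries. The median of the 33 was 0.06, with 24 higher, and after quantile normalisation -0.01, with 16 higher. White adipocyte markers, summed to 23.7, 72.2 and 15.3 CPM in BCAA-free TAC and 27.8, 18.9 and 15.1 CPM in BCAA-free sham libraries, against 23.8, 7.12 and 8.25 CPM in control TAC and 8.77 to 9.77 CPM in control sham libraries. Averaged over surgery, 2 of 12 cardiomyocyte markers rose on the BCAA-free diet and 0 fell (median 0.07). Of the other markers, 3 of 6 white adipocyte and 2 of 5 skeletal muscle markers rose. Lower on that diet were 2 of 10 endothelial, 1 of 10 fibroblast and 1 of 10 macrophage markers. The part of these markers in the diet results was not tested.

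Genes around the pathway were counted in 4 further lists, chosen with results of these data known. Of 38 other genes of fatty acid uptake, mitochondrial oxidation and its control, 35 were tested on the control diet, where 6 fell with TAC and 0 rose (median -0.15), against 308 that fell of all 15873 genes tested. They were led by Ucp3, a mitochondrial carrier (-1.40 ± 0.16, adjusted p = 0.00378), Pdk4, the kinase that restrains pyruvate dehydrogenase (-0.76 ± 0.11, adjusted p = 0.00835), and Cpt1a, the liver form of the outer membrane transferase (-0.51 ± 0.10, adjusted p = 0.0205), with Aldh9a1, an aldehyde dehydrogenase of carnitine synthesis, next (-0.51 ± 0.10, adjusted p = 0.0237). On the BCAA-free diet 34 were tested, and 2 rose and 0 fell with TAC (median 0.04), against 469 that rose and 219 that fell of all 15936 genes: Acot11, a thioesterase (0.49 ± 0.08, adjusted p = 0.0118), and Slc25a29, a mitochondrial carrier (0.55 ± 0.13, adjusted p = 0.0462). In the list of other peroxisomal genes, 6 of 24 fell with TAC on the control diet, among them Pex11a, a factor of peroxisome division (-0.51 ± 0.08, adjusted p = 0.0135), Ehhadh, the other peroxisomal bifunctional enzyme (-0.63 ± 0.12, adjusted p = 0.0228), and Cat, catalase (-0.35 ± 0.07, adjusted p = 0.0251). On the BCAA-free diet 0 of 23 passed by limma, where 4.32% of all genes did. Of the 23, 2 had an unadjusted p under 0.05, where 21.4% of all genes did. Among 27 regulators, 1 fell with TAC on each diet, a share near that of all genes: the nuclear receptor gene Esrrg on the BCAA-free diet (-0.42 ± 0.07, adjusted p = 0.0125) and Prkab1, a subunit of AMP-activated protein kinase, on the control diet (-0.35 ± 0.08, adjusted p = 0.0311). Averaged over the diets, 7 of the 27 fell and 0 rose, beside the 7.29% of all genes that fell, and of these Prkab1, the corepressor gene Ncor1, the muscle regulator gene Perm1 and Esrrg had the lowest p. In a list of 6 genes of ketone body use, 0 passed by limma with TAC on either diet. Of the 6, 1 had an unadjusted p under 0.05 on the BCAA-free diet, where 21.4% of all genes did. On the control diet 2 did, where 22.7% of all genes did.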

How the data were processed

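There are 4 tables by the authors: TAC against sham on each diet, and the diets against each other in each surgery. The tools named in the submitters' processing notes are DESeq2, STAR 2.5.2b, Trimmomatic 0.36 and Subread 1.5.2, with the mouse build GRCm38 (mm10). Settings, strand and library kit: not given in the sources used here. The deposited library columns hold a signal, the reads of a gene divided by the library's size factor, made separately for each table, as the values show. Per the file headers, the same tables hold log2 fold changes, a p-value and its adjusted form for each gene.

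Whole reads were recovered from 100% of the values at a tolerance of 0.001 reads. They gave TMM-scaled CPM (edgeR 4.0.16) for levels, divided by exon length from GENCODE M21 for levels per kb. Differences were tested with limma 3.58.1 (R 4.3.3) with an intensity trend on log2(value + 4), keeping genes whose mean reached 10. Adjustment followed Benjamini and Hochberg across every gene tested, with a threshold of 0.05. This scale understates changes of low genes. The difference of TAC responses and the averages used 12 columns of 2 tables. The procedure was tested on simulated data. Alternatives were a pseudocount of 1, no filter, quantile normalisation, edgeR and DESeq2 1.42.0 on recovered reads, a replicate block, 1 fit of all 12 libraries and libraries left out. In each comparison the members past the threshold are named, or, where fewer than 6 pass, the 6 of smallest p; other lists give up to 4 of smallest p. The members and lists were chosen with earlier results of these data known. In the authors' deposited table, 18 members were lower and 0 higher in TAC on the control diet, and 5 lower and 0 higher on the BCAA-free diet, at an adjusted p under 0.05. Depth sets counting error only, and no molecular identifiers are stated.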

Additional observations from a re-analysis of the deposited data

How the results depend on the processing

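No member that passed changed sign under an alternative. For TAC on the BCAA-free diet, where 0 members passed, quantile normalisation gave 6, DESeq2 5 and 1 fit of all 12 libraries 1, all lower. Leaving out single libraries gave 0 to 4, while 106 to 1199 of all genes passed. For TAC on the control diet, with 10, edgeR gave 6 and DESeq2 18, and leaving out single libraries gave 1 to 10. For the diet in sham hearts, with 1, edgeR gave 2, DESeq2 3 and 1 fit of all 12 libraries 0, and leaving out single libraries gave 0 to 3. For the diet in TAC hearts, with 1, quantile normalisation and edgeR gave 0, DESeq2 6, 1 fit of all 12 libraries 7 (6 higher, 1 lower), leaving out both control TAC replicates 2 and 3 gave 0, and leaving out single libraries gave 0 to 7. Averages of TAC ran from 10 to 19 and of diet from 3 to 10 with single libraries left out. All genes called ran from 1732 to 2889 and from 1062 to 2484 in those settings. The difference of TAC responses had 0 members under every alternative. The cause was not tested. Whether the replicate numbers pair the libraries was not settled. The r of same-numbered libraries ran from -0.0885 to 0.221, and was 0.0126, 0.107 and 0.0211 for the diet in sham hearts. With 3 libraries per group, such values cannot show whether a batch was shared. A replicate block gave 2 members for the diet in sham hearts, 7 for the diet in TAC hearts, 0 and 10 for TAC on the BCAA-free and the control diet, 0 for the difference of responses, 19 for the average of TAC and 5 for the average of diet. A pseudocount of 1 and no filter gave the reported counts of members in every comparison. Over all genes, DESeq2 called 1145 against 688 by limma for TAC on the BCAA-free diet, 1539 against 848 on the control diet, 812 against 438 for the diet in sham hearts, 1188 against 548 in TAC hearts and 108 against 7 for the difference of responses. The block gave 713, 1275 and 3 and 1 fit of all 12 libraries 142, 1187 and 7 in the last 3 of these, and a pseudocount of 1 or quantile normalisation gave 4 for the difference. Leaving out both control TAC replicates 2 and 3 leaves 1 library in that group, assumed to vary like the other groups, and gave 0 genes for the diet in TAC hearts, 1 for the difference and 850 for the average of diet, against 1819; these counts say nothing about stability.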
